A study of Mus musculus with 21 samples.

Results

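The clustered protocadherins are a family of adhesion genes that lie side by side on mouse chromosome 18 in an alpha, a beta and a gamma cluster. They were chosen by symbol alone (Pcdha, Pcdhb, Pcdhga, Pcdhgb, Pcdhac and Pcdhgc followed by a number), which took 58 of the 25239 gene symbols of each expression table: 14 alpha, 22 beta and 22 gamma members. The study sequenced RNA from the choroid plexus and the hypothalamus of mice with overexpression, in the choroid plexus, of Ins2, which encodes insulin. The choroid plexus is the epithelial tissue that secretes cerebrospinal fluid, and the hypothalamus is the brain region around the arcuate nucleus, the feeding centre to which the study's title refers. Choroid plexus libraries came from 6 samples with Ins2 overexpression and 5 controls, and hypothalamus libraries from 5 with Ins2 overexpression in the choroid plexus and 5 controls, numbered 1 to 4 and 6. All were labelled wild type on a C57BL/6J background, and the controls were labelled as untreated, although the hypothalamus control columns carry the prefix GFP. The sources used here do not give age, the way Ins2 was introduced, or whether replicates were separate animals, so a p-value here speaks only of the spread among the sequenced samples.

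Most proteins of this family sit at the cell surface and bind a copy of themselves on a neighbouring cell. Every alpha and gamma gene has its own promoter and a large variable first exon, which is spliced to constant exons shared by the whole cluster, whereas a beta gene is essentially a single exon. Single neurons switch on a small random set of the alternate members, with the insulator protein Ctcf and cohesin bringing promoters to distant enhancers, and carry in this way a surface code used in self-avoidance of their branches. The C-type members (Pcdhac1, Pcdhac2, Pcdhgc3, Pcdhgc4 and Pcdhgc5) sit at the downstream ends of their clusters and are expressed with less randomness. In choroid plexus epithelium, gamma proteins are known from the apical surface that faces the fluid.

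On the GRCm38 build, with GENCODE gene models, the alpha cluster spans chromosome 18 from 36930184 to 37187661, the beta cluster from 37264938 to 37524479 and the gamma cluster from 37661793 to 37841873, all on the plus strand. The median alpha member shared 2860 constant exon bases with the rest of its cluster and the median gamma member 2119, while the median beta member shared 0. How the authors' counting treated reads in those shared exons is not given in the sources used here. The counts bear on it directly: Pcdha4, Pcdha5, Pcdha6, Pcdha7 and Pcdha8 had 0 reads in all 11 choroid plexus libraries, while Pcdhac2, which ends in the same constant exons, had 529.9 to 892 scaled reads in each. Reads of the shared exons were therefore not credited to every member. Antisense genes cover exon bases of 13 members, up to 63.5% of Pcdhb12, 55.2% of Pcdhga10, 45.6% of Pcdha11 and 32.3% of Pcdhgc3, and since the strand setting of the counting is not given, the values of these 13 are uncertain to that extent. None of the 8 antisense genes has a row of its own in the tables. First exons of some members also share sequence. The part of 50-base stretches found in no other member's first exon was lowest in Pcdha7, at 76.6%, and was 100% in every C-type. With 150-base stretches the lowest was Pcdha11, at 91.9%. How reads that fit several members were counted is not given, so alternate members may be undercounted relative to C-types.

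The 11 choroid plexus libraries held 25.95 to 36.3 M reads in genes (M, 1e+06) and the 10 hypothalamus libraries 27.4 to 62.1 M, and the 58 members took 0.0293% to 0.0355% of them in choroid plexus and 0.0394% to 0.054% in hypothalamus. Where a member had no read, a floor of 3 reads, equal to 0.0483 to 0.116 reads per M, is the upper limit of its level by counting error alone. Ins2 itself was 387 to 501 scaled reads in the 5 control and 598 to 1041 in the 6 Ins2 choroid plexus libraries (log2 fold change 0.92, limma adjusted p = 0.00594), and in hypothalamus it was above 0 in 1 library, an Ins2 one, at 5.75. The 10 epithelial markers of the choroid plexus (Ttr, Kl, Folr1 and others) summed to 3461700 to 4187900 in every choroid plexus library and the 15 neuronal markers to 661 to 1131, with 6 of them under a mean of 10, among them Rbfox3 and Slc32a1. The hypothalamus libraries held 228800 to 242520 for the neuronal list. Choroid plexus control 2 stood apart, with 54063 for 9 oligodendrocyte markers against 2533 to 5887 in the other 10. Within groups the tested members varied more than counting noise alone gives, with a median chi-square per degree of freedom of 4.94 in choroid plexus and 6.28 in hypothalamus. In bulk tissue, fewer cells of a type and less RNA per cell cannot be told apart.

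The first question was which members each tissue used. Choroid plexus drew mostly on the downstream part of each cluster, in alpha and gamma largely through the C-types, and Pcdhgc3 stood above all other members there. Values are reads scaled by the authors' size factors and divided by the length of the gene's exons in kilobases (kb), and shares are of the cluster total in the same library, so they do not depend on the library's scaling. The tables were scaled separately, so the tissues are described side by side with no test between them. Gamma members held 78.2% ± 0.835 of the family's level per kb in control choroid plexus (SD, n = 5) and 61.3% ± 2.18 in control hypothalamus (SD, n = 5). Beta members held 14.6% ± 0.661 and 32.3% ± 2.52, and alpha members 7.18% ± 0.582 and 6.40% ± 0.424. Exon lengths of alpha and gamma members include the shared constant exons, which beta genes lack, so shares between clusters depend on the length used. Where reads of those exons were not counted, this length makes the beta share too large. By reads alone, gamma held 75.7% and 64.5%, beta 15.7% and 27.7%, and alpha 8.58% and 7.82% in the same controls. Shares between clusters were not computed with first-exon lengths.

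**Figure D1:**
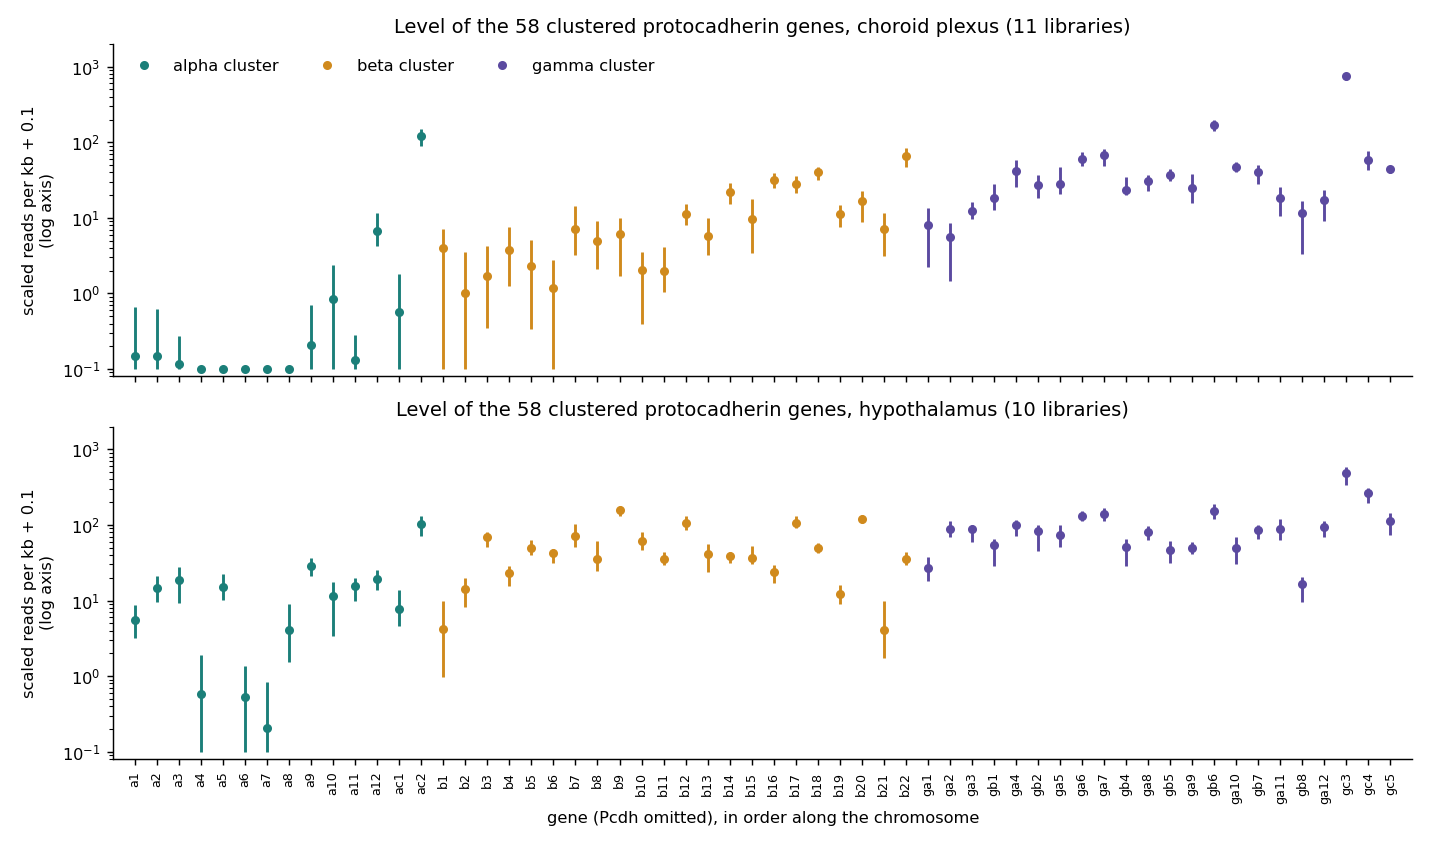
Level of each of the 58 genes, in order along the chromosome, as size-factor-scaled reads per kb of exon plus 0.1 on a log axis, in 11 choroid plexus libraries (upper) and 10 hypothalamus libraries (lower). Points are means and lines run from the lowest to the highest library. In choroid plexus the alpha members other than Pcdhac2 and Pcdha12 lie near 0, whereas in hypothalamus 11 of 14 alpha members are well above it.

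In the alpha cluster of choroid plexus, almost all signal came from Pcdhac2, a C-type member known to be needed for the even spacing of serotonin axons. Its level was 121.8 ± 17.4 scaled reads per kb (SD over 11 libraries), or 93.9% ± 1.70 of the cluster. Pcdha12 followed at 5.01% ± 1.42 and Pcdha10 at 0.575% ± 0.669, and the effective number of members (the inverse Simpson index, which is 1 where a single member holds everything) was 1.13 ± 0.039. The other C-type, Pcdhac1, had reads in 7 of 11 libraries, at most 9.27 scaled reads. With 5 members at 0, no lowest member can be named.

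The hypothalamus drew on most of the alpha cluster. Pcdhac2 was again highest at 102.7 ± 17.7 scaled reads per kb (SD over 10 libraries) but held only 42.2% ± 2.71 of the cluster, ahead of Pcdha9 with 11.6% ± 1.57 and Pcdha12 with 7.79% ± 1.02. Pcdhac1 held 3.16% ± 1.15, and the effective number was 4.56 ± 0.389. The 3 lowest members were Pcdha4, Pcdha6 and Pcdha7, with means of 2.55, 2.30 and 0.574 scaled reads and reads in 4, 4 and 3 of 10 libraries. Those are also the 3 members whose first exon starts a long RefSeq gene that runs on to the end of the gamma cluster (Gm37013, Gm38666 and Gm38667). Each of these long genes has its own row, and they were at 0 in every choroid plexus library and at most 3.42 scaled reads in hypothalamus. How reads in a first exon shared with a long gene were counted is not given. The values near 0 of Pcdha4, Pcdha6 and Pcdha7 therefore cannot be read as low expression, in either tissue. The next member up, Pcdha8, had a mean of 21.2 scaled reads and reads in all 10 libraries.

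In the beta cluster choroid plexus drew on the downstream end, while hypothalamus favoured neither end. The 11 downstream genes, Pcdhb12 to Pcdhb22, held 87.6% ± 2.17 of the beta level per kb in choroid plexus (lowest library 83.2%, highest 91.0%) and 50.6% ± 2.14 in hypothalamus (47.1% to 53.95%). Across the 22 genes, which share their libraries, level and position along the chromosome had a Spearman rho of 0.79 in choroid plexus and 0.04 in hypothalamus. Pcdhb22, the last gene of the cluster, was highest in choroid plexus at 65.95 ± 9.52 scaled reads per kb (SD over 11 libraries), or 23.2% ± 2.12 of the cluster. It was followed by Pcdhb18 with 14.0% ± 1.31 and Pcdhb16 with 11.1% ± 2.18. In hypothalamus Pcdhb22 held 3.13% ± 0.35 and ranked 14 of 22, and the leading genes were Pcdhb9 (13.8% ± 1.42), Pcdhb20 (10.6% ± 0.514) and Pcdhb17 (9.43% ± 1.07). The next gene, Pcdhb12 at 9.36% ± 1.29, differed from Pcdhb17 by less than their spread. Pcdhb9 held 2.14% ± 0.982 in choroid plexus.

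The lowest beta member was Pcdhb2 in choroid plexus (0.302% ± 0.395, reads in 5 of 11 libraries) and Pcdhb21 in hypothalamus (0.353% ± 0.214, reads in all 10). In hypothalamus Pcdhb1, at 0.361% ± 0.235, differed from Pcdhb21 by less than their spread, and it was the lowest with reads alone, unshared exon bases or RefSeq lengths. Both tissues spread their beta reads over many members, with an effective number of 8.73 ± 0.593 in choroid plexus and 13.9 ± 0.485 in hypothalamus. Over the 22 genes, the mean levels per kb of the tissues had a rank correlation of 0.17 for beta, against 0.66 over the 14 alpha and 0.61 over the 22 gamma members, given as a description with no test. The order within beta rests in part on which exon length is used. Choroid plexus kept Pcdhb22 first with RefSeq lengths, followed by Pcdhb14 and Pcdhb17, and hypothalamus led with Pcdhb12, Pcdhb9 and Pcdhb20 when only exon bases free of any other gene were counted. That last length keeps 1107 of the 3034 exon bases of Pcdhb12, the rest lying under an antisense gene.

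**Figure D2:**
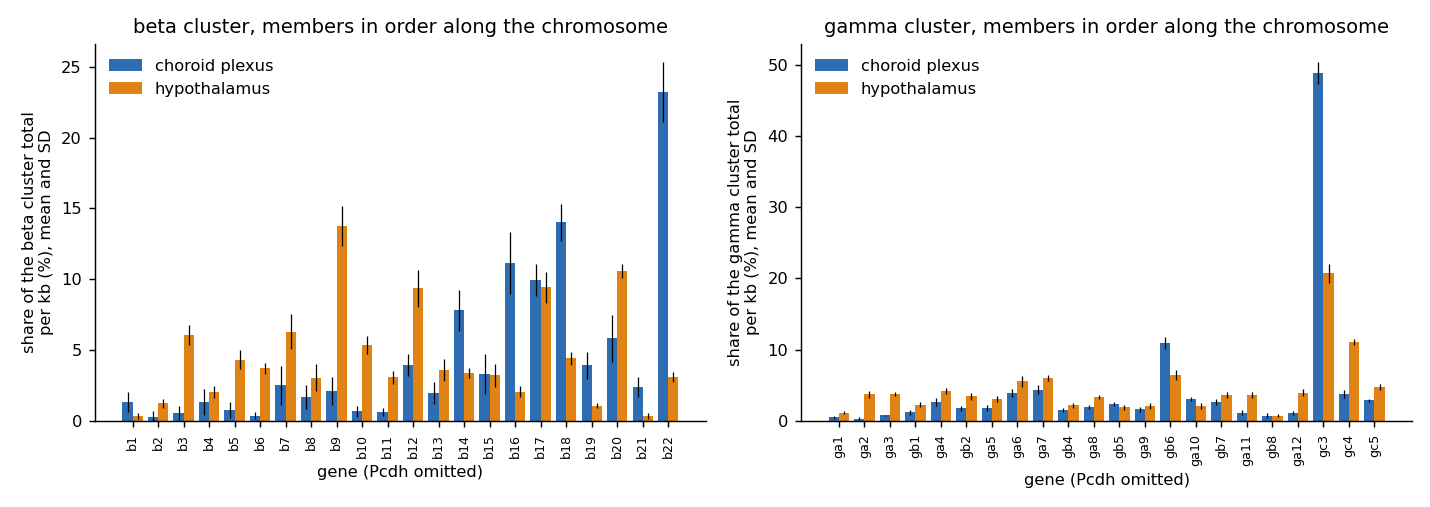
Share of the beta (left) and gamma (right) cluster total per kb held by each member, in order along the chromosome; bars are means and lines are SDs over 11 choroid plexus and 10 hypothalamus libraries. Beta shares in choroid plexus gather at the downstream end, with Pcdhb22 at 23.2%, and Pcdhgc3 holds 48.8% of the gamma level in choroid plexus and 20.7% in hypothalamus.

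Pcdhgc3 was the leading gamma gene of both tissues. It encodes a C-type protein known to bind Axin1 and to dampen Wnt signalling, and it lies at 37806364 to 37841873. Its level was 752 ± 61.3 scaled reads per kb over 11 choroid plexus libraries and 493.1 ± 85.9 over 10 hypothalamus libraries, or 48.8% ± 1.58 and 20.7% ± 1.32 of the gamma total. In choroid plexus Pcdhgb6 came second with 10.9% ± 0.831 and then Pcdhga7 with 4.36% ± 0.632. Pcdhgc4, known to be needed for the survival of many interneurons, held 3.82% ± 0.564 there and ranked 5. In hypothalamus Pcdhgc4 came second with 11.1% ± 0.453, ahead of Pcdhgb6 with 6.44% ± 0.703. Pcdhgc5 held 2.91% ± 0.226 in choroid plexus and 4.78% ± 0.446 in hypothalamus.

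As a group, the 3 gamma C-types held 55.5% ± 1.21 of the gamma level in choroid plexus and 36.6% ± 1.94 in hypothalamus. The 12 gamma A members held 23.3% ± 1.07 and 42.7% ± 1.68, and the 7 gamma B members 21.2% ± 1.05 and 20.7% ± 1.07. The downstream 11 of the 22 gamma genes held 79.1% ± 1.28 in choroid plexus and 61.2% ± 1.08 in hypothalamus. Without the C-types, the downstream 10 of the other 19 held 60.9% ± 2.55 and 47.6% ± 1.18 of what remained, and level and position had a Spearman rho of 0.21 and -0.06. Pcdhga7, Pcdhga6 and Pcdhga4, all among the upstream 11, ranked 3, 4 and 8 in choroid plexus. The lowest gamma members were Pcdhga2 in choroid plexus (0.349% ± 0.156) and Pcdhgb8 in hypothalamus (0.713% ± 0.208), both with reads in every library. Pcdhgb8 is annotated as a polymorphic pseudogene in the gene models used. Unlike the alpha genes, all 22 gamma genes had reads in every library of both tissues. The effective number was 3.84 ± 0.224 in choroid plexus and 12.03 ± 0.696 in hypothalamus. With first exons as the length it was 3.85 and 12.1, with Pcdhgc3 at 48.7% and 20.8%. It fell to 2.02 and 6.02 when only unshared exon bases served as the length, which put Pcdhgc3 at 69.8% and 37.6%. That length leaves out 1513 bases of Pcdhgc3 under an antisense gene and keeps 1055. Whether reads in the bases left out were counted is not known.

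The second question was whether Ins2 overexpression changed the members in choroid plexus, where Ins2 was raised. No member passed the threshold (limma on log2(value + 1), Benjamini-Hochberg adjusted p under 0.05 over all genes with a mean of at least 10). Of 58 members, 39 reached that mean (2 alpha, 15 beta and 22 gamma) and 19 were too low to test. The background was low as well: 2 of 14533 genes were called, 0.0138% of them, Ins2 and Jchain. edgeR and DESeq2 on the recovered reads also called 0 members. At an unadjusted p under 0.05, 4 members were lower with Ins2 (Pcdhac2, Pcdhgb6, Pcdhb22 and Pcdhga7) and 0 higher, against 3.67% of all genes lower and 2.54% higher. The fold change was below 0 for 26 of 39 members, against 51.6% of all genes tested.

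Pcdhac2 had the smallest p. Its values were 753, 764, 847, 763 and 892 scaled reads in the controls, and 529.9 at the lowest, 669.9 at the median and 710.1 at the highest in the 6 Ins2 libraries. Every Ins2 library lay below every control, which held for 0.392% of all genes in that direction. The mean went from 804 ± 62.2 (SD, n = 5) to 645 ± 66.1 (SD, n = 6), a log2 fold change of -0.32 (95% interval -0.50 to -0.14). It did not pass adjustment (limma adjusted p = 0.455), and the exact two-sided permutation p was 0.00216, the smallest that 462 splits can give. That permutation p restates the lack of overlap and is not adjusted for the 39 members tested. Without each library in turn, the limma adjusted p ran from 0.270 to 0.909. Control 2, the library with high sums of oligodendrocyte and other brain markers, had a Pcdhac2 value of 764, inside the range of the other 4 controls.

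Pcdhgb6, the second gamma gene of the choroid plexus, had values of 826, 859.7, 917, 774 and 866 in the controls. The Ins2 libraries ran from 651 to 818 with a median of 755, so the groups overlapped. The log2 fold change was -0.20 (95% interval -0.36 to -0.04; limma unadjusted p = 0.0161, adjusted p = 0.715). Pcdhb22 was 459, 465.6, 548, 448 and 458 in the controls and 314 to 500.3 in the Ins2 libraries, with a median of 406 and a log2 fold change of -0.25 (limma adjusted p = 0.766). Pcdhga7 was 401, 349, 338, 429.8 and 402 in the controls and 251 to 375 with Ins2, with a median of 329.7 and a log2 fold change of -0.26 (limma adjusted p = 0.793). In both genes the lowest Ins2 library was below every control and the highest lay among them.

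The 3 gamma C-types had log2 fold changes nearer 0, each with an interval that included 0, and Pcdhac1 was too low to test. Pcdhgc3 was 3357, 3813, 3871, 3648 and 3682 in the controls and 3095 to 3877, median 3342, with Ins2, a log2 fold change of -0.11 (95% interval -0.24 to 0.02; limma adjusted p = 0.823). Pcdhgc4 was at -0.14 (-0.41 to 0.14) and Pcdhgc5 at -0.07 (-0.30 to 0.15). Among members above 0, the smallest p-values belonged to Pcdhb4 (log2 fold change 0.80, 95% interval -0.33 to 1.92), Pcdhb19 (0.26), Pcdhgb4 (0.18) and Pcdhga6 (0.12), with limma adjusted p from 0.868 to 0.910. Pcdhb4 is among the scarcest tested, at 4.30 to 28.1 scaled reads in any library.

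By cluster, the median log2 fold change of the tested members in choroid plexus was -0.45 for the 2 alpha genes, -0.14 for the 15 beta genes and -0.06 for the 22 gamma genes, against -0.0045 over all genes tested. The summed alpha value was 813, 791, 914, 811 and 958 in the controls and 573 to 751 in the Ins2 libraries, a gap carried by Pcdhac2. Beta sums overlapped between the groups (1463 to 1791 against 1318 to 1556), as did gamma sums (7269.8 to 7989 against 6536 to 7833). The effective number of gamma members was 3.79 ± 0.192 in the controls and 3.89 ± 0.255 with Ins2, a difference within 1 SD.

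**Figure D3:**
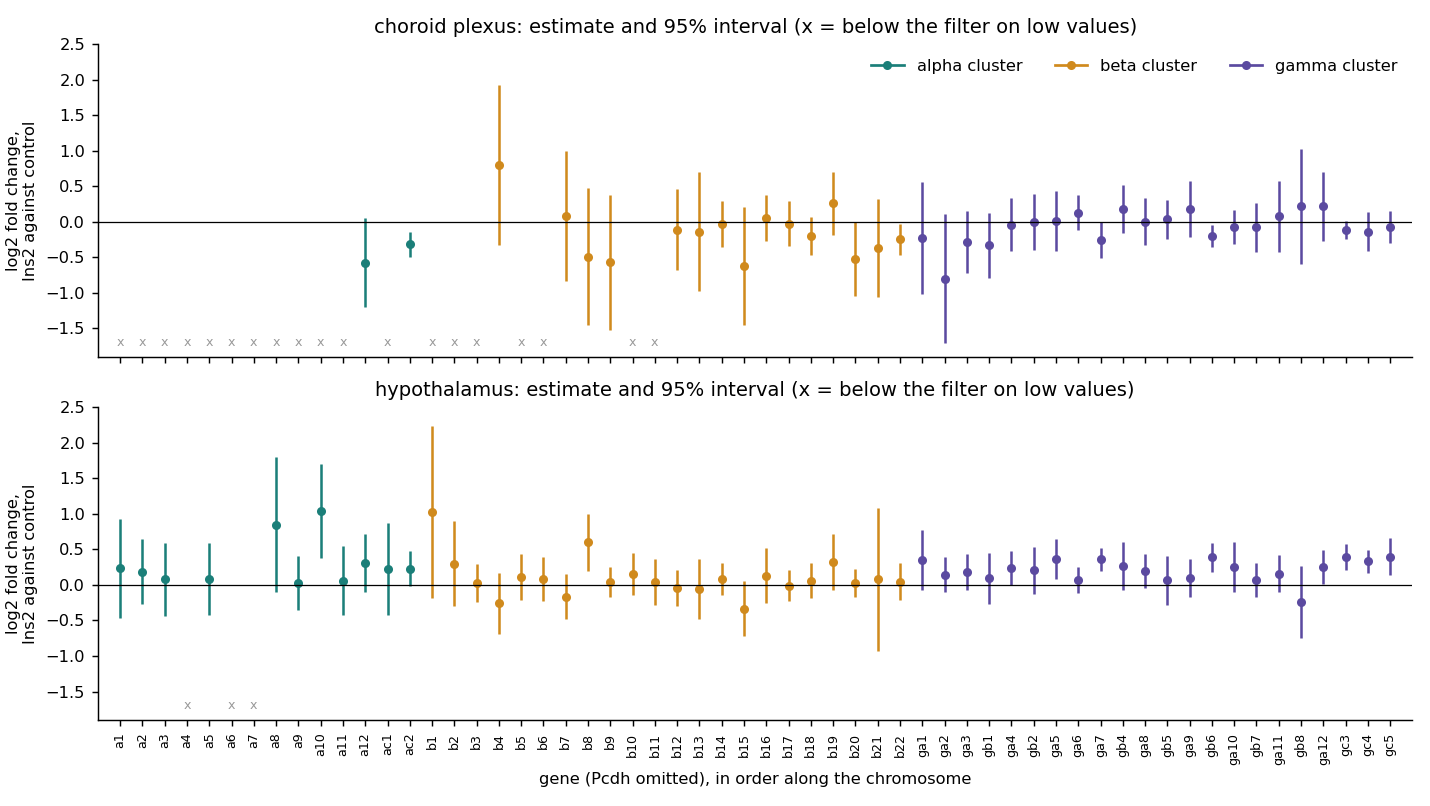
Log2 fold change of Ins2 against control for each member in order along the chromosome, with the 95% interval from limma; an x marks members under the filter on low values. In choroid plexus (upper) 26 of 39 tested members lie below 0, and in hypothalamus (lower) 48 of 55 lie above it, but no member passed the adjusted threshold in either tissue.

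The third comparison asked the same of the hypothalamus, where Ins2 had reads in 1 library. The fold change was above 0 for 21 of 22 gamma members, C-type and alternate alike, but no member passed the threshold. Without controls 1 and 4, which are described below, it was above 0 for 16 of 22. The members share their libraries and scaling, so they are not separate observations. Of 58 members 55 were tested (11 alpha, 22 beta and 22 gamma); Pcdha4, Pcdha6 and Pcdha7 were too low. limma called 0 members and 0 of 16363 genes, a background of 0%. With an unadjusted p under 0.05 there were 10 members, all higher with Ins2, against 5.85% of all genes higher: Pcdha10, Pcdhb8, Pcdhga4, Pcdhga5, Pcdhga7, Pcdhga12, Pcdhgb6, Pcdhgc3, Pcdhgc4 and Pcdhgc5. edgeR called 0 members, and DESeq2 on the recovered reads called 1, Pcdhgc3 (DESeq2 adjusted p = 0.0337). The fold change was above 0 for 48 of 55 members, against 50.3% of all genes tested.

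In 3 members, all of the gamma cluster, every Ins2 library lay above every control, a pattern held by 0.77% of all genes in that direction. The first was Pcdhgc3. Its values were 1639.6, 2303, 2219, 1599 and 2306 scaled reads in controls 1, 2, 3, 4 and 6, and 2490.2, 2665, 2641, 2748 and 2500.5 in the 5 Ins2 libraries. Controls 1 and 4 lay well below the other 3 controls. The mean was 2013 ± 362 in the controls and 2609 ± 111 with Ins2 (SD, n = 5 each), a log2 fold change of 0.39 (95% interval 0.21 to 0.58; limma adjusted p = 0.309). The exact two-sided permutation p was 0.00794, the smallest that 252 splits can give. It restates the lack of overlap and is not adjusted for the 55 members tested.

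The other two were Pcdhgc4 and Pcdhga7. Pcdhgc4 was 1030.5, 1293, 1272, 977 and 1282 in the controls and 1481, 1418, 1539, 1509.6 and 1385 with Ins2, a log2 fold change of 0.33 (95% interval 0.17 to 0.50; limma adjusted p = 0.309). Pcdhga7, an alternate gamma A member, was 584, 675, 747, 579.8 and 649.9 in the controls and 858, 770.2, 863, 801 and 839.7 with Ins2, a log2 fold change of 0.36 (0.19 to 0.53; limma adjusted p = 0.309). In both genes, as in Pcdhgc3, control 4 was the lowest library and control 1 the next.

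Pcdhgb6 and Pcdhgc5 had overlapping groups. Pcdhgb6 was 597, 553, 806, 556 and 598 in the controls and 774, 730.5, 869, 879.6 and 785 with Ins2, so control 3 lay above 3 of the 5 Ins2 libraries. Its log2 fold change was 0.39 (95% interval 0.19 to 0.59; limma adjusted p = 0.309). Pcdhgc5 was 353, 527, 569.9, 369 and 538 in the controls and 536, 638, 579.7, 684 and 614 with Ins2, with a log2 fold change of 0.40 (0.14 to 0.65; limma adjusted p = 0.350).

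**Figure D4:**
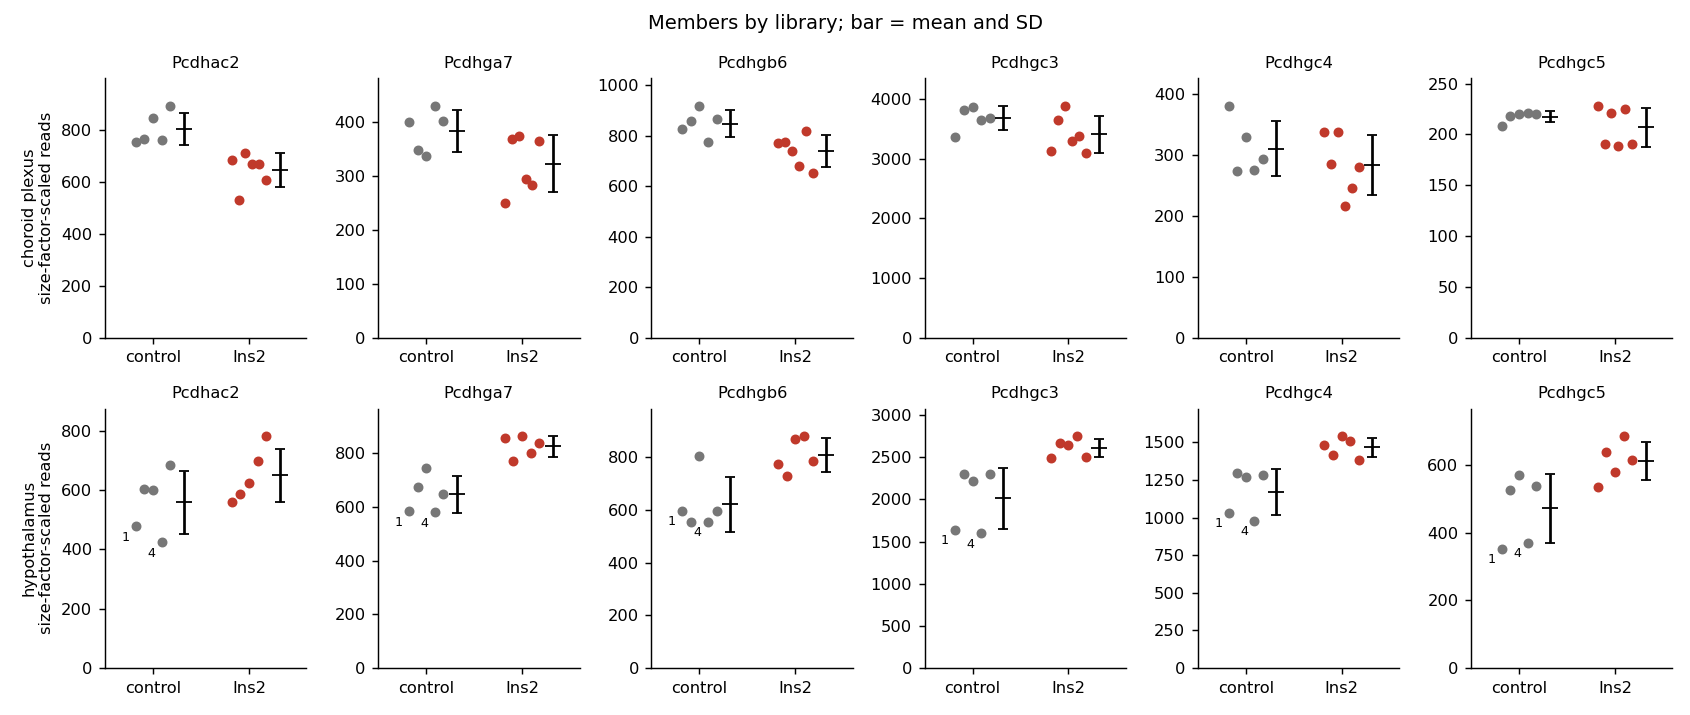
Size-factor-scaled reads of 6 members in each library of choroid plexus (upper) and hypothalamus (lower), with the mean and SD of each group at its right; every axis starts at 0, and hypothalamus controls 1 and 4 are numbered. Pcdhac2 separates the groups in choroid plexus, Pcdhga7, Pcdhgc3 and Pcdhgc4 separate them in hypothalamus, and controls 1 and 4 are the 2 lowest hypothalamus libraries in 5 of the 6 members, all but Pcdhgb6.

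Of the alpha and beta members, Pcdha10 and Pcdhb8 had an unadjusted p under 0.05, and the alpha C-types did not. Pcdhac2 was 479, 603, 602, 425 and 685 in the hypothalamus controls and 559, 587, 624, 700.2 and 782 with Ins2, a log2 fold change of 0.23 (95% interval -0.02 to 0.48; limma adjusted p = 0.539). Pcdhac1 was at 0.22 (-0.42 to 0.87). Pcdha10 was 34.3, 74.1, 58.8, 17.8 and 27.2 in the controls and 71.7, 71.3, 94.5, 67.8 and 88.6 with Ins2, a log2 fold change of 1.04 (0.38 to 1.70; limma adjusted p = 0.332), with control 2 above 3 Ins2 libraries. Pcdhb8 went from 90.8 ± 7.94 to 142.4 ± 41.9 (SD, n = 5 each) and its limma adjusted p was 0.350. Below 0, the smallest p-values belonged to Pcdhb15 (log2 fold change -0.34, 95% interval -0.72 to 0.05), Pcdhb4 (-0.26), Pcdhb7 (-0.16) and Pcdhgb8 (-0.24), with limma adjusted p from 0.565 to 0.765.

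By cluster, 21 of 22 gamma members, 11 of 11 tested alpha members and 16 of 22 beta members had a fold change above 0 in hypothalamus. The median log2 fold changes were 0.22, 0.22 and 0.05, against 0.0011 over all genes tested. The summed gamma value was 9219.8, 11177, 11421, 8485 and 11324 in controls 1, 2, 3, 4 and 6 and 11941, 11956, 12428, 13126 and 12373 with Ins2, so the groups did not overlap. Beta sums were 4146 to 4629 in the controls and 4261 to 4673 with Ins2, and overlapped. The gamma share of the family per kb was 57.9% to 63.4% in the controls and 63.6% to 65.7% with Ins2, and the beta share 29.8% to 36.1% against 28.3% to 29.3%. The effective number of gamma members was 12.5 ± 0.496 in the controls and 11.5 ± 0.441 with Ins2 (SD, n = 5 each).

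Part of the size of this difference rested on hypothalamus controls 1 and 4. They were the 2 lowest of the 10 libraries in 9 of 22 gamma, 2 of 11 alpha and 3 of 22 beta members tested, against 8.17% of all genes tested. Without both, the median gamma log2 fold change was 0.08 in place of 0.22, that of the tested alpha members 0.07 and that of Pcdhgc3 0.20 (limma adjusted p = 0.902). In that fit 16 of 22 gamma members had a fold change above 0, and 7 members had a limma unadjusted p under 0.05. The summed gamma value of the other 3 controls was 11177 to 11421, still below the 11941 of the lowest Ins2 library. Markers of oligodendrocyte precursors, the glial cells that give rise to myelinating cells, had their lowest sums in the same libraries: the 6 markers summed to 14588 and 13764 in controls 1 and 4, 16412 to 16641 in the other 3 controls and 16611 to 17597 with Ins2. Controls 1 and 4 were the 2 lowest libraries for 3 of the 6 markers (Cspg4, Olig1 and Olig2) and not for Pdgfra, Sox10 and Gpr17. All 6 markers were above a mean of 10 in this tissue, and their part in the result was not tested. Control 4 also had low values of long genes (at least 4887 exon bases) relative to short ones (at most 2028). The difference of their median log2 deviations was -0.164 there, 0.0020 in control 1 and -0.079 to 0.084 over all libraries but control 4. With each library's length trend removed, 21 of 22 gamma members had a fold change above 0, and 8 members had a limma unadjusted p under 0.05.

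The log-scale average of the neuronal marker list was also high in 4 of the 5 Ins2 libraries of the hypothalamus. The mean log2(value + 1) of the 15 markers was 13.04 to 13.17 in the controls, 13.07 in Ins2 replicate 1 and 13.23 to 13.26 in the other 4 Ins2 libraries, while their summed values overlapped (228800 to 242520 against 230300 to 241450). Slc17a7, a vesicular glutamate transporter, is 1 of these 15 markers and counts as much as any other in that average. It was 26.2 to 49.3 scaled reads in the controls, 30.6 in Ins2 replicate 1 and 87.6 to 117.3 in the other 4. The average without Slc17a7 was not computed, so a gap over the neuronal markers as a set is not shown. Ins2 replicate 1 lay among the controls on that average and on Slc17a7. Its summed gamma value of 11941 was the lowest of the 5 Ins2 libraries and above every control. A link of the neuronal list alone to the gamma values was not tested. With the score of the neuron, astrocyte and oligodendrocyte lists as a covariate, the members at an unadjusted p under 0.05 went from 10 to 3. In that fit the Pcdhgc3 log2 fold change was 0.25, and 18 of 22 gamma members had one above 0.

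**Figure D5:**
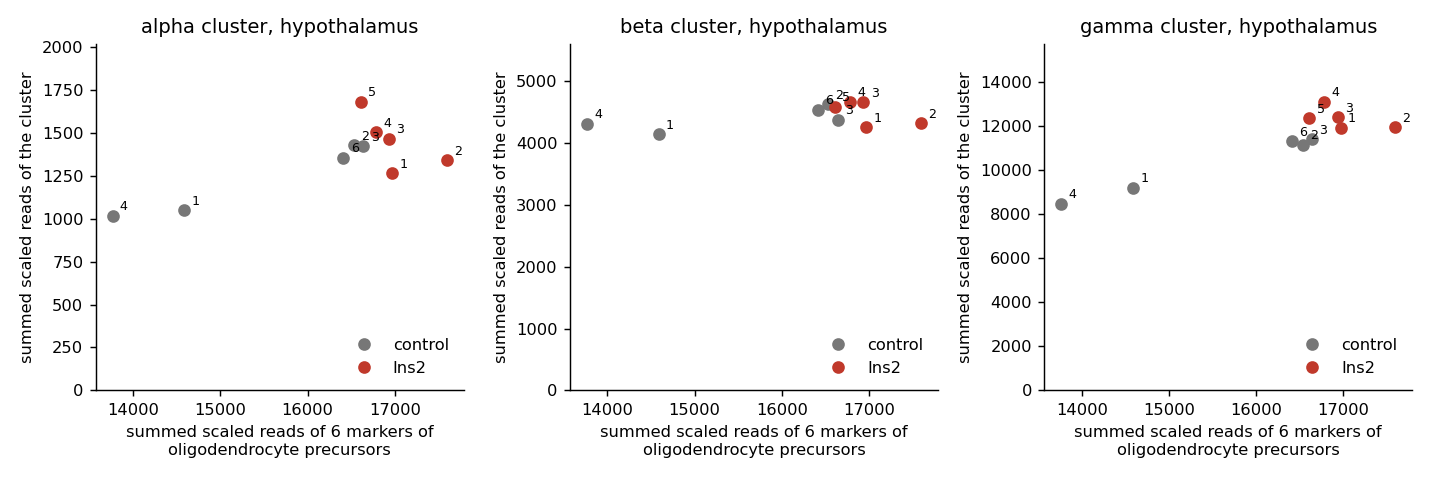
Summed scaled reads of the alpha, beta and gamma clusters (vertical axes, from 0) against the summed scaled reads of 6 markers of oligodendrocyte precursors (horizontal axes) in the 10 hypothalamus libraries, numbered by replicate. Controls 1 and 4, at 14588 and 13764 on the horizontal axis, have the lowest alpha and gamma sums, and the 5 Ins2 libraries lie above all controls in the gamma panel.

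The last comparison asked whether the Ins2 effect differed between the tissues, member by member. For Pcdhgb6 and Pcdhgc3 it did at the adjusted threshold: both were slightly lower with Ins2 in choroid plexus and higher in hypothalamus. The difference of the log2 fold changes was 0.59 ± 0.12 (SE) for Pcdhgb6 (from -0.20 in choroid plexus to 0.39 in hypothalamus, limma standard errors, adjusted p = 0.0332) and 0.51 ± 0.11 for Pcdhgc3 (from -0.11 to 0.39, adjusted p = 0.0460). These were 2 of 39 members tested in both tissues, against 15 of 13997 genes, a background of 0.107%. The next smallest p was that of Pcdhga7, with a difference of 0.62 ± 0.14 (adjusted p = 0.0789). At an unadjusted p under 0.05 the hypothalamus effect was above the choroid plexus effect in 9 members and below it in 0, against 5.86% and 4.74% of all genes tested in both. A positive sign in hypothalamus with a negative one in choroid plexus was found in 22 of 39 members, 13 of them among the 22 gamma genes, against 29.1% of all genes tested in both.

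Both calls depended on single libraries. The Pcdhgb6 call was lost in 10 of 21 fits that left out 1 library: the adjusted p was 0.0577 and 0.0973 without choroid plexus controls 2 and 3, 0.0774 without choroid plexus Ins2 replicate 6, 0.104, 0.0657 and 0.0544 without hypothalamus controls 1, 2 and 4, and 0.0522, 0.1004, 0.0932 and 0.0761 without hypothalamus Ins2 replicates 2, 3, 4 and 5. The Pcdhgc3 call was lost in 12: the adjusted p was 0.0711, 0.106 and 0.0819 without choroid plexus controls 2, 3 and 4, 0.0800 and 0.0802 without choroid plexus Ins2 replicates 1 and 6, 0.141 and 0.0640 without hypothalamus controls 1 and 4, and 0.0549, 0.116, 0.1004, 0.115 and 0.0790 without hypothalamus Ins2 replicates 1 to 5. The difference itself stayed between 0.55 and 0.68 for Pcdhgb6 and between 0.43 and 0.56 for Pcdhgc3 in those fits, and was 0.52 and 0.31 without hypothalamus controls 1 and 4 together (adjusted p = 0.197 and 0.227). Both calls were also lost with equal totals per library (adjusted p = 0.0681 for Pcdhgb6 and 0.0694 for Pcdhgc3), with each library's length trend removed (0.0578 for both) and with the brain score as a covariate (0.323 and 0.881). The test treats the libraries of the tissues as independent, which need not hold if they came from the same mice.

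The genes around the family in its pathway gave no call in either tissue. Of the list of promoter choice, chromatin and cohesin genes, 28 of 28 were tested in each tissue and 0 were called by limma, with 3 at an unadjusted p under 0.05 in choroid plexus (1 higher and 2 lower) and 2 in hypothalamus (both lower). Over all genes tested, 2.54% were higher and 3.67% lower by that measure in choroid plexus, and 5.85% and 4.08% in hypothalamus, so these counts are close to the background. Ctcf, the insulator protein that binds protocadherin promoters, had a log2 fold change of 0.04 in choroid plexus and -0.01 in hypothalamus. Rad21, a cohesin subunit, was at -0.02 and 0.00, Smchd1, a chromatin repressor of the clusters, at -0.07 and 0.08, and Wiz, a zinc-finger partner of cohesin, at -0.04 and 0.09. Of the intracellular partners and cleavage enzymes, 25 of 27 reached the filter in choroid plexus and 27 in hypothalamus, with 0 called and medians of -0.0044 and 0.02. At an unadjusted p under 0.05, 2 of them were lower in choroid plexus, and 2 were higher and 1 lower in hypothalamus. Of 12 protocadherins outside the clusters, 8 were tested in choroid plexus, all 8 with a fold change below 0 and a median of -0.30. Over all genes tested there, 51.6% were below 0 and the median was -0.0045. In hypothalamus 12 were tested, 8 of them above 0 with a median of 0.02, against 50.3% and 0.0011 over all genes tested. At an unadjusted p under 0.05, 1 of these protocadherins was lower in choroid plexus, Pcdh7 (log2 fold change -0.23, limma adjusted p = 0.504). In hypothalamus 1 was higher, Pcdh1 (0.35, limma adjusted p = 0.309).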

How the data were processed

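The deposited tables, 1 for each tissue, hold signal values: gene counts divided by DESeq2 size factors by the authors, per the file headers, scaled within a tissue. Poly(A) RNA gave directional dUTP libraries, per the labels' protocols. HISAT2, featureCounts and DESeq2 with GRCm38 (mm10) are named in the submitters' processing notes. Versions and the strand and overlap settings stay unstated there and in the labels. Whole reads were recovered, within 0.02, for 100% of values. Genes with a mean of at least 10 were tested tissue by tissue on log2(value + 1) with limma (version 3.58.1, R 4.3.3; eBayes with trend), two-sided, with Benjamini-Hochberg adjustment and 95% intervals. The added 1 makes the fold changes of scarce genes smaller than they are. The test between tissues used the difference of log2 fold changes with both moderated errors. Alternatives included edgeR 4.0.16 and DESeq2 1.42.0 on the recovered reads. The test was checked on simulated data. Exon lengths came from GENCODE. The text names C-types, the 3 highest and the lowest members of each cluster, the 4 smallest p-values in each direction, members whose groups did not overlap, the 3 smallest p-values of the tissue difference, and Ctcf, Rad21, Smchd1 and Wiz. Other genes at an unadjusted p under 0.05, and Pcdhb1, Pcdhb12, Pcdhb14, Pcdhga4, Pcdha4 to Pcdha8 and Slc17a7, were named after their values were seen. The members and lists were chosen with earlier results of these data known. Single genes of the chromatin list other than the 4 named are not reported here.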

Additional observations from a re-analysis of the deposited data

Results flagged for a closer look

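Of 56 groups of libraries examined for named members and cluster sums, 5 held a single library far from the rest, and chance alone gives about 1 in 20. In control choroid plexus, Pcdhb19 was 97.2 scaled reads in replicate 2, against 58.3 to 69.5 in the other 4 libraries. Pcdhb22 was 548 in replicate 3, against 448 to 465.6, and the summed beta value of the same library was 1791, against 1463 to 1549. Pcdhgc5 was 208 in replicate 1, against 218 to 221. In control hypothalamus, Pcdhgb6 was 806 in replicate 3, against 553 to 598. The Ins2 effect differed between the tissues, by a test of the difference itself, for Pcdhgb6 (log2 fold change 0.59 higher in hypothalamus) and Pcdhgc3 (0.51 higher). These calls were lost in 10 and 12 of the 21 fits that left out 1 library. By limma neither gene passed the threshold in either tissue alone.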

How the results depend on the processing

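The call of 0 members in choroid plexus held under every alternative run (pseudocounts, filters, equal totals, edgeR, DESeq2, array weights, replicate block, brain score and each library left out), while all genes called went from 2 to 1 with a mean of at least 50, to 25 with DESeq2, to 6 with array weights and to between 1 and 4 without each library. In hypothalamus DESeq2 called 1 member (Pcdhgc3, log2 fold change 0.37, adjusted p = 0.0337) and 39 genes, the brain score as a covariate 0 members and 12 genes, and leaving out each library 0 members and 0 to 18 genes. Replicate numbers gave no sign of pairing (correlations of same-numbered deviations from -0.15 to 0.14). For some hypothalamus samples the replicate number differs from the number in the sample code, and pairing by code was not tried. With the replicate block, 1 hypothalamus member (Pcdhgc3, 0.46, adjusted p = 0.0204) and 57 genes were called, against 0 members and 0 genes in the same libraries with no block, and the median of choroid plexus gamma members was 0.0017, as it was in the same libraries with no block and without Ins2 replicate 6; leaving out each library gave -0.11 to 0.0017. The difference between tissues called 0 members with equal totals, with the brain score, with each library's length trend removed and without hypothalamus controls 1 and 4, and 0 to 3 without each library. Effective numbers with unshared bases as length were 1.18 (alpha) and 2.02 (gamma) in choroid plexus and 10.5 (beta) and 6.02 (gamma) in hypothalamus. Beta was 6.77 and 14.9 with reads alone and 6.11 and 14.4 with RefSeq lengths. Gamma was 3.85 and 12.1 with first-exon lengths. Chosen after seeing the data were the alternatives on hypothalamus controls 1 and 4, length trend, RefSeq and first-exon lengths, the same libraries with no block, and, for the difference between tissues, equal totals and the brain score. Reads per member limit alpha in choroid plexus, where 12 of 14 genes were too low to test. The causes of these shifts were not tested.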
